A study of Mus musculus with 14 samples.

Results

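The core circadian clock genes described here are Arntl (also called Bmal1), Npas2, Clock, Per1, Per2, Per3, Cry1, Cry2, Nr1d1 and Nr1d2, chosen by name as the activators and repressors of the core clock loop. All 10 were in the count table of 22430 genes, and all 10 had enough counts to be tested among 14269 genes. They were measured by RNA sequencing of aortic intima (the innermost coat of the artery, covered by endothelium) in 14 libraries. Each library was a pool of 12 to 14 mice of 1 genotype, lysed by passing reagent through the lumen of the thoracic aorta after perfusion and removal of the arch.

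All mice lacked apolipoprotein E (Apoe-/-), which makes them prone to atherosclerosis. Ubiquitous progerin mice (Apoe-/-LmnaG609G/G609G, 3 pools) carried the G609G mutation on both copies of Lmna, so that their cells splice its transcript into progerin, the shortened lamin A that causes Hutchinson-Gilford progeria. VSMC progerin mice (Apoe-/-LmnaLCS/LCS SM22Cre, 3 pools) carried a Cre recombinase driven by the SM22α promoter that turns on progerin in vascular smooth muscle cells (VSMC), in animals that otherwise make lamin C only. Lamin C-only control mice (Apoe-/-LmnaLCS/LCS, 4 pools) had the same Lmna alleles without Cre, and wild-type control mice (Apoe-/-Lmna+/+, 4 pools) had unaltered Lmna. Ubiquitous progerin was set against wild-type control, VSMC progerin against lamin C-only control, and lamin C-only control against wild-type control. The sources used here do not give the age of the mice, their light schedule or the hour at which tissue was taken. Whether the groups were collected at the same hour was therefore not tested.

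The clock is a loop in which the activator ARNTL, paired with CLOCK or its relative NPAS2, switches on the Per, Cry and Nr1d genes through E-box sequences in DNA. PER and CRY proteins return to the nucleus and block the activator pair, while NR1D1 and NR1D2 (REV-ERBα and REV-ERBβ), nuclear receptors that repress transcription, act on Arntl, Npas2 and Clock through ROR elements (ROREs). In peripheral tissues, the vessel wall included, Arntl transcripts therefore peak near the time at which Nr1d1 transcripts are lowest. Per1 is also switched on directly by glucocorticoid hormone and by cAMP signals.

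The promoter windows of the members in which a searched clock element was found at its full length are printed here. Of the 10 genes, 9 had a window of 250 bases before to 50 bases after an annotated start in RefSeq (GRCm38.p6), 13 windows in all, and Per2 had none. Capitals mark the RORE in Arntl, the E-box (CACGTG) and the D-box (TTATGNAA, N for any base) in Per1, the E-box in Cry1 and both D-boxes in Per3, searched on both strands. The windows lie at chr7:113207261-113207560 (plus strand) for Arntl, chr11:69098699-69098998 (plus strand) for Per1, chr10:85185005-85185304 (minus strand) for Cry1 and chr4:151044616-151044915 (minus strand) for Per3.
Arntl: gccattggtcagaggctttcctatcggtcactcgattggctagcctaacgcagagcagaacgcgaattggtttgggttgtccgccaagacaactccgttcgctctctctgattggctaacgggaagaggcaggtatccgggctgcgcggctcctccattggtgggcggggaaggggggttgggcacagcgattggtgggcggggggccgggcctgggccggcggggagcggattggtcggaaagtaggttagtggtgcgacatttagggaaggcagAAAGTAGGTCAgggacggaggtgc
Per1: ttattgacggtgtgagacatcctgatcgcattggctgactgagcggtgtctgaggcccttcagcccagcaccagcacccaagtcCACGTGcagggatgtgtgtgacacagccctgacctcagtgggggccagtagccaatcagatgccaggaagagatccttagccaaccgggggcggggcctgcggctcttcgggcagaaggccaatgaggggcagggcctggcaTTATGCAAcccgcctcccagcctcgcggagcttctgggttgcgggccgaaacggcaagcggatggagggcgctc
Cry1: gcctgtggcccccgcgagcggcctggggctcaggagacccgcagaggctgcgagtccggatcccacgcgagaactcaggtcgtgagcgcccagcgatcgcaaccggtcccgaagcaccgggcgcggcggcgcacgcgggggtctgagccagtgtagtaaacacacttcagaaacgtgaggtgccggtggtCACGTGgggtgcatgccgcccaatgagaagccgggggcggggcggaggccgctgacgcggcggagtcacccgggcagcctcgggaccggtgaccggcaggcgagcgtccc
Per3: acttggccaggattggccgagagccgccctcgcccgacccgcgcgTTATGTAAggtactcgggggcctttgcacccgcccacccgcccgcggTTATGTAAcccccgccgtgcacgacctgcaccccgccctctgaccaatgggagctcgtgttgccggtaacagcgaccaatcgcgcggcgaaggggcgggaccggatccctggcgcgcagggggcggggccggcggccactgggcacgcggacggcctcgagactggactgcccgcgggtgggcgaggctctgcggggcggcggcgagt
The RORE was found in 1 of the 13 windows, against 0.384% of all 32851 promoter windows of the same length. The E-box was found in 2 of the 13 windows, against 7.15% of all windows, and the D-box in 2, against 3.38%. The full cAMP response element TGACGTCA was in 0 of the 13 windows, against 1.79% of all. Its half-site TGACG was in 4 of the 13 windows, windows of Per1 among them, against 20.8% of all. AGGTCA, the end of the RORE found in Arntl, was in 4 of the 13, against 16.3% of all. These shorter matches are not capitalised on their own. These matches are letters in a window, and none was tested as a binding site.

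Levels are CPM (a gene's counts relative to the total of its library, on a scale common to all libraries) adjusted by the trimmed mean of M-values, and standard errors (SE) and adjusted p-values come from the quasi-likelihood test of edgeR, adjusted by Benjamini and Hochberg's method over all 14269 genes. Genes with an adjusted p below 0.05 are termed called. Library totals ran from 27169784 to 29309795 estimated counts in ubiquitous progerin, from 27730536 to 33029122 in VSMC progerin, from 31701265 to 35692385 for lamin C-only control and from 28242609 to 31978619 in wild-type control. Lmna lay at 115 to 121 CPM in ubiquitous progerin, 207 to 256 CPM in VSMC progerin, 126 to 142 CPM for lamin C-only control and 113 to 125 CPM in wild-type control. Since lamin A, lamin C and progerin are all counted under Lmna, the genotypes are not checked by it. The intima label was checked by 10 endothelial markers, all detected in every group, whose summed level lay between 20772 and 24875 CPM over the 14 libraries. Most of that sum came from Pecam1 and Vwf (means of 11949 and 5094 CPM in ubiquitous progerin). The sum also hides opposite moves of single markers. Against wild-type control, 3 of the 10 were called higher and 5 lower in ubiquitous progerin (log2 fold change 1.17 for Emcn and -1.30 for Tek). Against lamin C-only control, 4 were called higher and 5 lower in VSMC progerin. Of all genes tested, 54.6% and 42.0% were called in these comparisons.

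In mean level per kilobase of annotated exon, the repressors other than Cry1 stood above the 3 activators in all 4 groups. Cry1 stood above them in ubiquitous progerin only (7.38 CPM per kilobase), at 2.29 in VSMC progerin, 2.07 in lamin C-only control and 2.28 in wild-type control. In ubiquitous progerin, Per1 (112.6 CPM per kilobase) and Nr1d1 (108 CPM per kilobase) were the highest of the 10, and in VSMC progerin Nr1d1 (34.9) was followed by Per1 (19.7). In lamin C-only control Nr1d1 stood at 86.4 and Per1 at 30.9 CPM per kilobase, and in wild-type control at 118 and 39.9. Arntl, Npas2 and Clock stayed between 1.43 and 4.53 CPM per kilobase in all 4 groups. Arntl was the lowest of the 10 in wild-type control, at 1.43 CPM per kilobase.

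**Figure D1:**
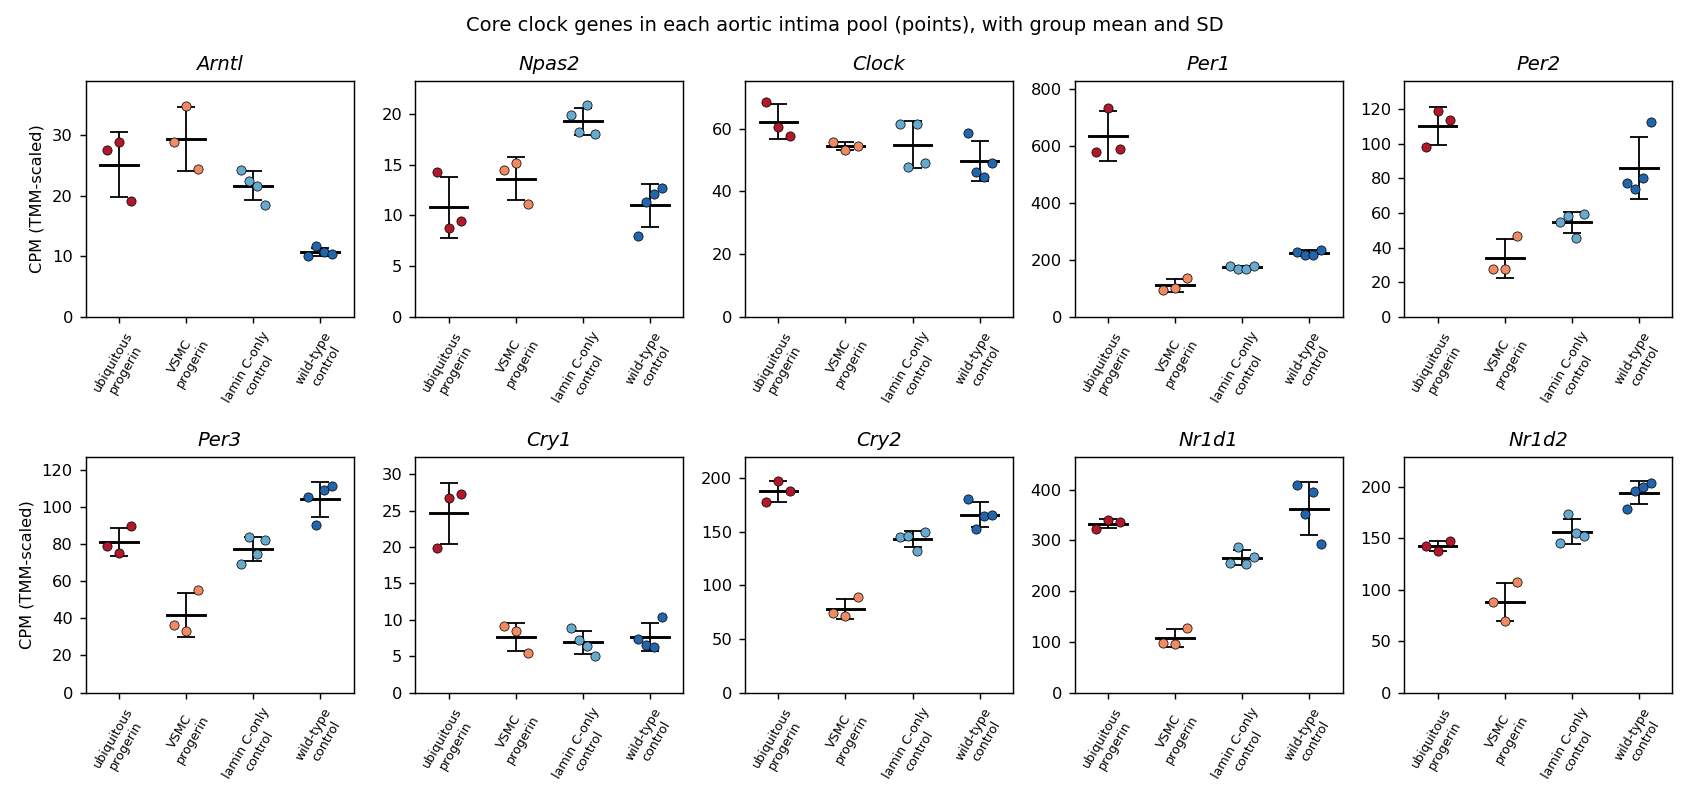
CPM of each core clock gene in each pool (points) on a linear axis from 0, with the group mean (thick line) and SD (bars), for ubiquitous progerin (n = 3), VSMC progerin (n = 3), lamin C-only control (n = 4) and wild-type control (n = 4). Per1 and Cry1 stand above all other groups in ubiquitous progerin, Nr1d1 and Cry2 stand below all other groups in VSMC progerin, and Arntl stands below all other groups in wild-type control.

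Ubiquitous progerin was set against wild-type control to ask how progerin in every cell goes with the intimal clock. Transcripts of the activator Arntl were more than doubled, and those of the repressors Per1 and Cry1 were also higher, at 2.82-fold and 3.22-fold. Nr1d2 was lower, and Nr1d1, Npas2, Per2 and Per3 were not called. Of the 10 genes 5 rose and 1 fell. In all, 54.6% of tested genes were called in this comparison, 26.3% higher and 28.3% lower, so that 6 called of 10 lies near the background. The CPM ranges did not overlap for 5 of the 10 genes, against 56.4% of all genes.

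Arntl (ENSMUSG00000055116, GRCm38 chromosome 7, 113207465 to 113314126, plus strand), the non-redundant activator of the loop, had 27.5, 28.9 and 19.1 CPM in ubiquitous progerin pools 1 to 3, against 10.1, 11.7, 10.7 and 10.4 CPM in wild-type control pools 1 to 4. The groups did not overlap, and the lowest progerin pool was still well above the highest control pool. The log2 fold change was 1.23 ± 0.14 (SE, adjusted p = 3.95e-07). Clock (ENSMUSG00000029238, chromosome 5, 76209868 to 76304792, minus strand), a DNA-binding partner of ARNTL, had 57.5 to 68.3 CPM in ubiquitous progerin and 44.6 to 58.7 CPM in wild-type control. Its ranges overlapped, and the rise of 0.32 ± 0.10 on the log2 scale (adjusted p = 0.0117) was lost without ubiquitous progerin pool 1 (log2 fold change 0.25, adjusted p = 0.0702). Npas2 (ENSMUSG00000026077, chromosome 1, 39193731 to 39363236, plus strand), the other partner, averaged 10.8 ± 3.0 CPM in ubiquitous progerin (SD, n = 3) and 11 ± 2.1 CPM in wild-type control (SD, n = 4). Its log2 fold change of -0.03 had a 95% interval of -0.39 to 0.33 (adjusted p = 0.908).

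Per1 (ENSMUSG00000020893, chromosome 11, 69095217 to 69109960, plus strand), a period repressor that also responds to hormonal and cAMP input, had 577, 734 and 590.1 CPM in ubiquitous progerin, against 228, 216, 218 and 237 CPM in wild-type control. Every progerin pool held at least 577 CPM and no control pool exceeded 237 CPM (log2 fold change 1.50 ± 0.11, adjusted p = 8.59e-09). Cry1 (ENSMUSG00000020038, chromosome 10, 85131700 to 85185064, minus strand), the late and strong cryptochrome repressor, had 19.8, 26.8 and 27.3 CPM in ubiquitous progerin, against 7.33, 6.57, 6.21 and 10.4 CPM in wild-type control. The ranges were far apart (log2 fold change 1.69 ± 0.21, adjusted p = 2.87e-06), the largest fold change of the 10 genes in this comparison. Cry2 (ENSMUSG00000068742, chromosome 2, 92403646 to 92434043, minus strand), the other cryptochrome, averaged 188 ± 10 CPM in ubiquitous progerin (SD, n = 3) and 166 ± 11 CPM in wild-type control (SD, n = 4), with overlapping ranges. Its call (log2 fold change 0.18 ± 0.07, adjusted p = 0.048) was kept in 7 of 14 alternative settings only, and it was lost without wild-type control pool 2, 3 or 4 (adjusted p = 0.142, 0.082 and 0.0743) and without ubiquitous progerin pool 2 or 3 (adjusted p = 0.186 and 0.0933).

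The other 2 period genes did not pass the test. Per2 (ENSMUSG00000055866, chromosome 1, 91415982 to 91459324, minus strand), a repressor that scaffolds the PER-CRY complex, had 98.0, 119 and 113.7 CPM in ubiquitous progerin, against 77.6, 74.2, 80.2 and 112.9 CPM in wild-type control. Wild-type control pool 4 lay within the progerin range, and without it the log2 fold change moved to 0.51 (adjusted p = 0.0363), against 0.35 ± 0.20 (adjusted p = 0.16) with all pools. Per3 (ENSMUSG00000028957, chromosome 4, 151003652 to 151044665, minus strand), the least essential of the period genes, had 79.0, 75.1 and 89.7 CPM in ubiquitous progerin, against 105, 90.3, 109 and 111 CPM in wild-type control. The pools did not overlap, yet the log2 fold change of -0.35 ± 0.15 missed the threshold (adjusted p = 0.056). It passed in 5 of 14 alternative settings, among them the removal of wild-type control pool 2 (adjusted p = 0.0355).

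Among the nuclear receptor repressors, Nr1d2 (ENSMUSG00000021775, chromosome 14, 18204054 to 18239127, minus strand) had 142.1, 138 and 148 CPM in ubiquitous progerin, against 178, 195, 200.1 and 203 CPM in wild-type control. It fell by 0.45 on the log2 scale (SE 0.10, adjusted p = 0.00157), with no overlap. Nr1d1 (ENSMUSG00000020889, chromosome 11, 98767932 to 98775333, minus strand) had 323, 339.6 and 337 CPM in ubiquitous progerin, against 409, 351, 395 and 293 CPM in wild-type control. The progerin pools lay inside the control range (log2 fold change -0.12, 95% interval -0.35 to 0.11, adjusted p = 0.373). Nr1d1 shares 263 exon bases with Thra, a thyroid hormone receptor gene on the opposite strand. The estimated counts of Nr1d1 were fractional in 14 of 14 libraries, so some of its reads were divided between entries. How many reads were divided, and whether they lie in the bases shared with Thra, was not tested. Arntl and Cry2 also overlap annotated antisense transcripts, by 33 and 295 exon bases, and the sources used here do not say whether strand was used in counting.

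**Figure D2:**
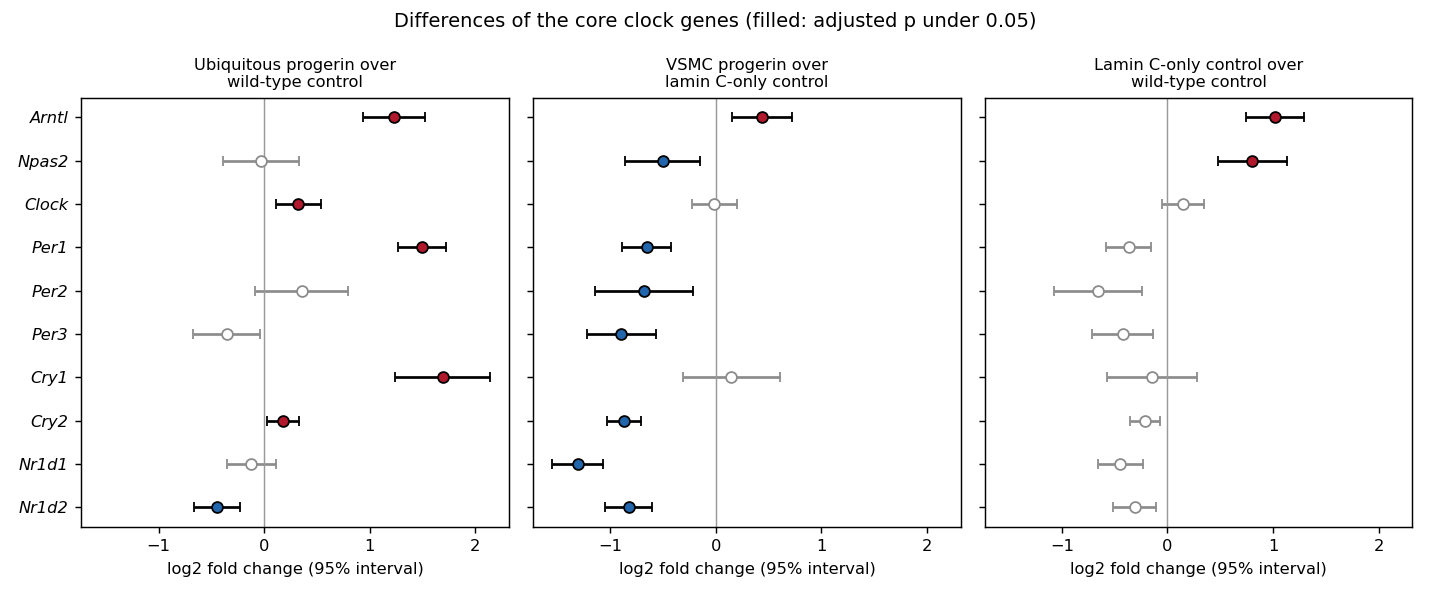
log2 fold change with its 95% interval for each gene in ubiquitous progerin over wild-type control, VSMC progerin over lamin C-only control and lamin C-only control over wild-type control. Filled points passed an adjusted p of 0.05 (red higher, blue lower), and open points did not. Arntl, Per1 and Cry1 stand apart to the right in the panel of ubiquitous progerin, and 7 genes lie to the left with filled points in the panel of VSMC progerin.

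VSMC progerin was set against lamin C-only control to ask how the intima differs with progerin that the labels place in smooth muscle cells. The repressor side of the loop was lower: all 3 period genes, Cry2 and both nuclear receptors fell, by 1.57-fold to 2.47-fold. Arntl rose by 1.35-fold, Npas2 fell, and Clock and Cry1 were not called. Of the 10 genes 7 fell and 1 rose, while 42.0% of all tested genes were called, 23.0% lower and 19.0% higher. The CPM ranges did not overlap for 7 of the 10 genes, against 45.5% of all genes. The median log2 fold change of the 10 genes was -0.67, against -0.03 over all genes tested.

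Nr1d1 had 98.2, 95.9 and 128 CPM in VSMC progerin pools 1 to 3, against 255, 286, 254 and 268 CPM in lamin C-only control pools 1 to 4. It had the largest change of the 10 genes here and fell by 1.31 on the log2 scale (SE 0.11, adjusted p = 2.02e-07), with no overlap between the groups. Thra, the overlapping gene, fell by 0.49 on the log2 scale (SE 0.06, adjusted p = 9.42e-07), at 168 ± 9 CPM in VSMC progerin (SD, n = 3) and 236 ± 11 CPM in lamin C-only control (SD, n = 4). Nr1d2 had 88.2, 69.8 and 107 CPM in VSMC progerin, against 146, 173, 155 and 152 CPM in lamin C-only control. Its groups were also apart (fell by 0.82 on the log2 scale, SE 0.11, adjusted p = 9.16e-06).

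Cry2 had 74.4, 71.5 and 89.0 CPM in VSMC progerin, against 145, 146, 133 and 149 CPM in lamin C-only control. It gave the smallest p of the 10 genes in this comparison (fell by 0.87 on the log2 scale, SE 0.08, adjusted p = 1.73e-08). Per3 had 36.4, 33.2 and 55.3 CPM in VSMC progerin, against 69.5, 83.6, 74.7 and 82.0 CPM in lamin C-only control (fell by 0.89 on the log2 scale, SE 0.15, adjusted p = 0.000356). Per1 had 93.9, 101 and 137 CPM in VSMC progerin, against 179, 168, 169 and 180.0 CPM in lamin C-only control (fell by 0.65 on the log2 scale, SE 0.11, adjusted p = 0.000161). None of these 3 repressors overlapped between the groups. Per2 had 27.5, 27.5 and 46.9 CPM in VSMC progerin, against 54.8, 58.6, 45.8 and 59.4 CPM in lamin C-only control. Here VSMC progerin pool 3 lay above the lowest control pool. Its fall of 0.68 ± 0.21 on the log2 scale (adjusted p = 0.0225) was lost with the compared groups alone (adjusted p = 0.0529), without VSMC progerin pool 1 (adjusted p = 0.104), VSMC progerin pool 2 (0.09) or lamin C-only control pool 4 (0.0505). Cry1 averaged 7.66 ± 1.98 CPM in VSMC progerin (SD, n = 3) and 6.90 ± 1.57 CPM in lamin C-only control (SD, n = 4), and its log2 fold change of 0.15 had a 95% interval of -0.31 to 0.61.

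On the activator side, Arntl had 28.9, 34.8 and 24.3 CPM in VSMC progerin, against 24.2, 22.4, 21.5 and 18.5 CPM in lamin C-only control. The groups were close without overlapping (24.3313 CPM in the lowest progerin pool and 24.2496 CPM in the highest control pool), and the rise of 0.44 ± 0.14 on the log2 scale (adjusted p = 0.0141) ended without VSMC progerin pool 2 (0.29, adjusted p = 0.124). Npas2 had 14.5, 15.1 and 11.2 CPM in VSMC progerin, against 19.9, 18.2, 20.8 and 17.99 CPM in lamin C-only control. Its fall of 0.50 ± 0.17 (adjusted p = 0.0225) ended without VSMC progerin pool 3 (-0.38, adjusted p = 0.111) or lamin C-only control pool 3 (-0.46, adjusted p = 0.0582). The call of Npas2 was also lost with a block for pool number (-0.49, adjusted p = 0.0576). Clock had 53.1 to 55.9 CPM in VSMC progerin and 47.8 to 61.4 CPM in lamin C-only control, and its log2 fold change of -0.01 (95% interval -0.23 to 0.20) changed sign with the scaling, at 0.018 with relative log expression size factors. Within the VSMC progerin group, pool 3 was the highest for 6 of the 10 genes, the repressors Per1, Per2, Per3, Cry2, Nr1d1 and Nr1d2, and the lowest for Arntl, Npas2 and Cry1.

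The progerin effects were compared directly, each against its own control libraries, to test whether the clock genes differ between the models. All 7 called differences were higher in the ubiquitous model than in the VSMC model, while 44.2% of all genes were called, 22.4% higher and 21.8% lower. Per1 differed the most, with a ubiquitous effect of 1.50 and a VSMC effect of -0.65 on the log2 scale (difference 2.15 ± 0.15, adjusted p = 1.8e-08). Cry1 differed by 1.54 ± 0.31 (adjusted p = 0.00053), Nr1d1 by 1.19 ± 0.15 (adjusted p = 1.46e-05), Cry2 by 1.05 ± 0.11 (adjusted p = 1.13e-07) and Per2 by 1.04 ± 0.29 (adjusted p = 0.0129). For Arntl the effect was 0.79 ± 0.20 larger in the ubiquitous model (adjusted p = 0.00269), although it rose in both. The level of Arntl itself was no higher in ubiquitous progerin than in VSMC progerin (means of 25.1 and 29.3 CPM, overlapping ranges). The control levels differed, at 10.7 CPM in wild-type control and 21.7 CPM in lamin C-only control.

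The remaining differences were smaller. Nr1d2 fell in both models and less so in the ubiquitous model (difference 0.38 ± 0.15, adjusted p = 0.0458), a call that held in 7 of 20 alternative settings and was lost on leaving out single libraries of each of the 4 groups (adjusted p up to 0.117). Per3 (0.54 ± 0.21, adjusted p = 0.0505), Npas2 (0.48 ± 0.24, adjusted p = 0.119) and Clock (0.34 ± 0.14, adjusted p = 0.0668) were not called. Without VSMC progerin pool 3 the difference for Per3 was 0.80 (adjusted p = 4.63e-05). By edgeR 0 of the 10 genes were called lower, at an unadjusted p under 0.05 the counts were 0 lower and 9 higher (25.3% and 25.7% of all genes), and limma-voom and DESeq2 also called 0 lower.

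Lamin C-only control was set against wild-type control to ask whether removing lamin A without progerin changes the intima. Few genes differed between these controls: 25 of 14269 were called, 0.175% (0.0911% higher and 0.0841% lower), and Arntl and Npas2 were 2 of them, 8% of the calls and 20% of the clock genes. Arntl had the smallest p of all 14269 genes. The 7 repressors lay lower in lamin C-only control by their point estimates, except Cry1 when 1 library was left out, and 0 of them were called by edgeR. The controls are also the reference of both progerin comparisons, so these differences share libraries with the values above.

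Arntl had 24.2, 22.4, 21.5 and 18.5 CPM in lamin C-only control pools 1 to 4, against 10.1, 11.7, 10.7 and 10.4 CPM in wild-type control pools 1 to 4. The 4 lamin C-only pools were all above 18 CPM and the wild-type pools all under 12 CPM (log2 fold change 1.01 ± 0.13, adjusted p = 0.00344), and the gene was called in 15 of 15 alternative settings. Npas2 had 19.9, 18.2, 20.8 and 17.99 CPM in lamin C-only control, against 7.94, 11.3, 12.1 and 12.7 CPM in wild-type control. The groups did not overlap (log2 fold change 0.81 ± 0.16, adjusted p = 0.0359), but the call was lost on leaving out any 1 of the 8 libraries (log2 fold change 0.68 to 0.88, adjusted p = 0.0517 to 0.158). Clock averaged 54.9 ± 7.5 CPM for lamin C-only control and 49.7 ± 6.3 CPM in wild-type control (SD, n = 4 each), with an adjusted p of 0.804.

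At an unadjusted p under 0.05, 6 of the 10 genes were lower in lamin C-only control and 2 higher, against 3.27% and 4.10% of all genes. Nr1d1 had 255, 286, 254 and 268 CPM in lamin C-only control, against 409, 351, 395 and 293 CPM in wild-type control (log2 fold change -0.45 ± 0.10, adjusted p = 0.11), and Per1 averaged 174 ± 6 CPM for lamin C-only control and 225 ± 10 CPM in wild-type control (SD, n = 4 each; adjusted p = 0.253). Per2 (-0.66 ± 0.19), Per3 (-0.42 ± 0.13), Nr1d2 (-0.31 ± 0.10) and Cry2 (-0.21 ± 0.07) had adjusted p-values from 0.35 to 0.395. For 8 of the 10 genes the CPM ranges of both controls did not overlap, against 4.97% of all genes tested. Genes of the loop regulate one another, so they are not independent observations. Nr1d1 was called lower by DESeq2 (adjusted p = 0.00127) and when wild-type control pool 4 was left out (adjusted p = 0.0159), and Per1 by DESeq2 (adjusted p = 0.0175). With the libraries of both controls alone, Per1 and Per3 were called lower (adjusted p = 0.0112 and 0.0439).

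**Figure D3:**
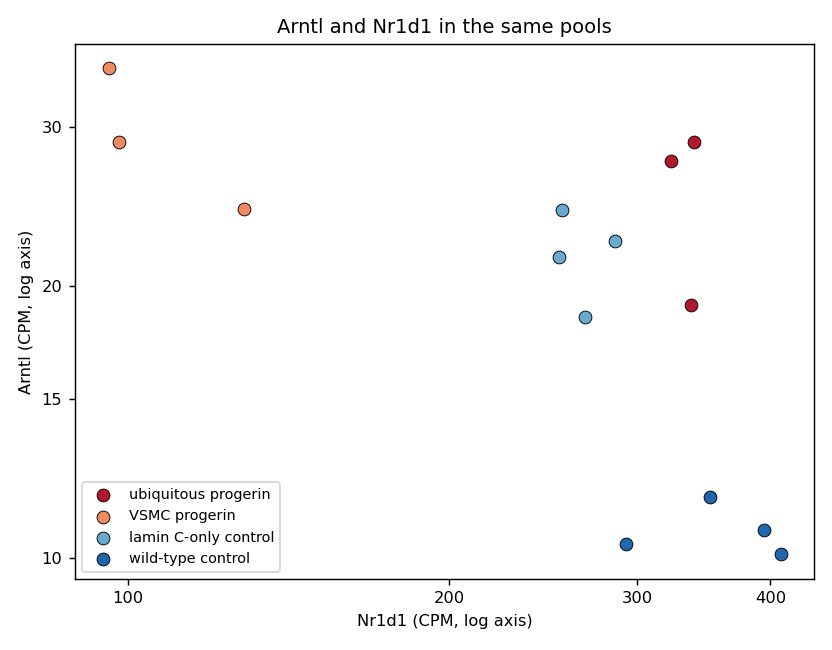
Arntl against Nr1d1 in the same 14 pools, both in CPM on log axes, coloured by group. VSMC progerin pools lie at the upper left (Nr1d1 at most 128 CPM), wild-type control pools at the bottom right (Arntl at most 11.7 CPM), lamin C-only control pools between them, and ubiquitous progerin pools at the upper right.

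Within each library, the level of Arntl relative to Nr1d1 put the groups in an order. The log2 CPM of Arntl minus that of Nr1d1 was -4.14 to -3.55 in ubiquitous progerin, -2.40 to -1.46 in VSMC progerin, -3.85 to -3.39 for lamin C-only control and -5.33 to -4.81 in wild-type control. VSMC progerin was highest and wild-type control lowest, neither overlapping another group, while ubiquitous progerin and lamin C-only control overlapped. The same quantity for Per1 minus Per3 was 2.72 to 3.29 in ubiquitous progerin, 1.31 to 1.61 in VSMC progerin, 1.01 to 1.37 for lamin C-only control and 1.00 to 1.26 in wild-type control. Here ubiquitous progerin stood apart from the other 3 groups.

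Across all 4 groups the genes ordered differently. Mean Per1 and Per2 decreased in the order ubiquitous progerin, wild-type control, lamin C-only control and VSMC progerin, as did Cry2. For Per1 no neighbours in that order overlapped, for Per2 ubiquitous progerin overlapped wild-type control and lamin C-only control overlapped VSMC progerin, and for Cry2 ubiquitous progerin overlapped wild-type control. Per3, Nr1d1 and Nr1d2 were highest in wild-type control and lowest in VSMC progerin. Arntl was highest in VSMC progerin, followed by ubiquitous progerin and lamin C-only control with overlapping neighbours, and was lowest in wild-type control. Npas2 was highest in lamin C-only control, which overlapped no other group. Clock ran from 62.1 CPM in ubiquitous progerin to 49.7 CPM in wild-type control with every pair of neighbours overlapping.

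The genes whose profiles over the 14 libraries were most like those of 3 members were found by the root mean square difference of log2 CPM, each gene centred on its own mean, among 10722 genes. For Nr1d1 these were Mamld1 (0.16), Wnk4 (0.16) and Tef (0.17), of which Tef, a PAR bZIP transcription factor, is a clock output gene. Cry2 ranked 24th (0.26) and Per3 30th (0.26) by likeness to Nr1d1. For Per2 they were Ier3 (0.26), Emb (0.28) and Ror2 (0.29), with Cry2 in 8th place (0.30). For Arntl they were Neurl3 (0.31), Prr7 (0.33) and Itgb3 (0.34), and the closest other member was Clock in 713th place (0.52). The measure depends on the size of changes. A gene that varied little, as Clock did, can therefore rank so without sharing the profile of Arntl.

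Beyond the 10 core genes, the secondary loop and output genes (ROR activators, PAR bZIP factors, Nfil3, the Bhlhe40 and Bhlhe41 repressors and others) had 13 of 14 members tested. In ubiquitous progerin 4 rose and 2 fell (median log2 fold change -0.19), in VSMC progerin 1 rose and 7 fell (median -0.51), and in lamin C-only control against wild-type control 0 rose and 1 fell (median -0.24). Over all genes tested the medians were -0.005, -0.03 and -0.0001, and the shares called were 54.6%, 42.0% and 0.175%. Ciart, a repressor of the activator pair, rose by 1.81 ± 0.26 in ubiquitous progerin (adjusted p = 1.85e-05), and Nfil3, a D-box repressor, by 1.23 ± 0.18 (adjusted p = 9.78e-06). In VSMC progerin Tef fell by 1.44 (210.3 ± 74.7 CPM, against 571 ± 33 CPM in lamin C-only control) and Bhlhe41, an E-box repressor, by 1.00 (adjusted p = 3.44e-05 and 6.26e-05). Bhlhe41 was also the 1 gene of this list called between the controls, at 10.1 ± 1.6 CPM for lamin C-only control and 18.5 ± 3.1 CPM in wild-type control (log2 fold change -0.87 ± 0.14, adjusted p = 0.013).

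Genes whose products modify or degrade clock proteins moved in both directions. In ubiquitous progerin 2 of 18 rose and 5 fell (median log2 fold change -0.06), in VSMC progerin 2 rose and 8 fell (median -0.19), and between the controls 0 were called by edgeR. Over all genes the shares called were 54.6% in ubiquitous progerin and 42.0% in VSMC progerin. Csnk1d, the casein kinase that phosphorylates PER proteins, rose by 0.59 ± 0.06 in ubiquitous progerin (221 ± 11 CPM, against 147 ± 11 CPM in wild-type control, adjusted p = 1.11e-07), and Sirt1, a deacetylase, rose by 0.59 ± 0.10 (adjusted p = 7.6e-05). In VSMC progerin Csnk1d and Sirt1 were called lower, by 0.22 and 0.41 (adjusted p = 0.00782 and 0.00411). Fbxw11, a ubiquitin ligase subunit, fell by 0.37 in ubiquitous progerin and by 0.51 in VSMC progerin (adjusted p = 7.95e-05 and 3.38e-06). In VSMC progerin Timeless, which also serves DNA replication forks, rose by 0.87 ± 0.08 (adjusted p = 7.56e-08). It fell by 0.39 in ubiquitous progerin (adjusted p = 0.00084).

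Because Per1 responds to glucocorticoid hormone, glucocorticoid targets are given beside it. Of 14 such genes 12 rose and 1 fell in ubiquitous progerin (median log2 fold change 1.59), 6 rose and 4 fell in VSMC progerin (median 0.18), and 0 were called between the controls by edgeR (median -0.12). Over all genes 26.3% rose and 28.3% fell in ubiquitous progerin, and 19.0% rose and 23.0% fell in VSMC progerin. Sgk1, a kinase induced by the hormone, had 565 ± 55 CPM in ubiquitous progerin and 288 ± 13 CPM in wild-type control (log2 fold change 0.97 ± 0.08, adjusted p = 2.81e-09). In VSMC progerin Sgk1 fell by 0.83 on the log2 scale (152 ± 22 CPM, against 271 ± 4 CPM in lamin C-only control, adjusted p = 7.5e-08). Mt1, a metallothionein, rose by 2.38 ± 0.10 in ubiquitous progerin and by 1.04 ± 0.10 in VSMC progerin (adjusted p = 2.51e-11 and 5.68e-07). Lcn2, a secreted siderophore-binding protein, rose by 2.90 ± 0.21 and by 2.85 ± 0.21 in the same comparisons (adjusted p = 5.77e-10 and 1.38e-09). The part of hormone input in the level of Per1 was not tested.

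Immediate early genes, which also respond to cAMP and growth factor signals, went both ways. Of 19 tested, 9 rose and 5 fell in ubiquitous progerin (median 0.34), 5 rose and 4 fell in VSMC progerin (median 0.23), and 0 were called between the controls by edgeR (median -0.02). The called share of all genes was 54.6% in ubiquitous progerin and 42.0% in VSMC progerin, and the 9 of 19 called in VSMC progerin lie near it. Jun fell by 1.18 in ubiquitous progerin and by 0.94 in VSMC progerin (adjusted p = 6.48e-11 and 2.47e-09), Fosl2 rose by 2.25 ± 0.15 in ubiquitous progerin (adjusted p = 3.45e-08), and Junb rose by 1.06 ± 0.11 in VSMC progerin (adjusted p = 4.79e-07). Junb also rose by 0.53 in ubiquitous progerin (adjusted p = 0.000442). The antiproliferative gene Btg2 rose by 0.58 ± 0.09 in ubiquitous progerin and by 0.66 ± 0.09 in VSMC progerin (adjusted p = 3.35e-05 and 1.27e-05).

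**Figure D4:**
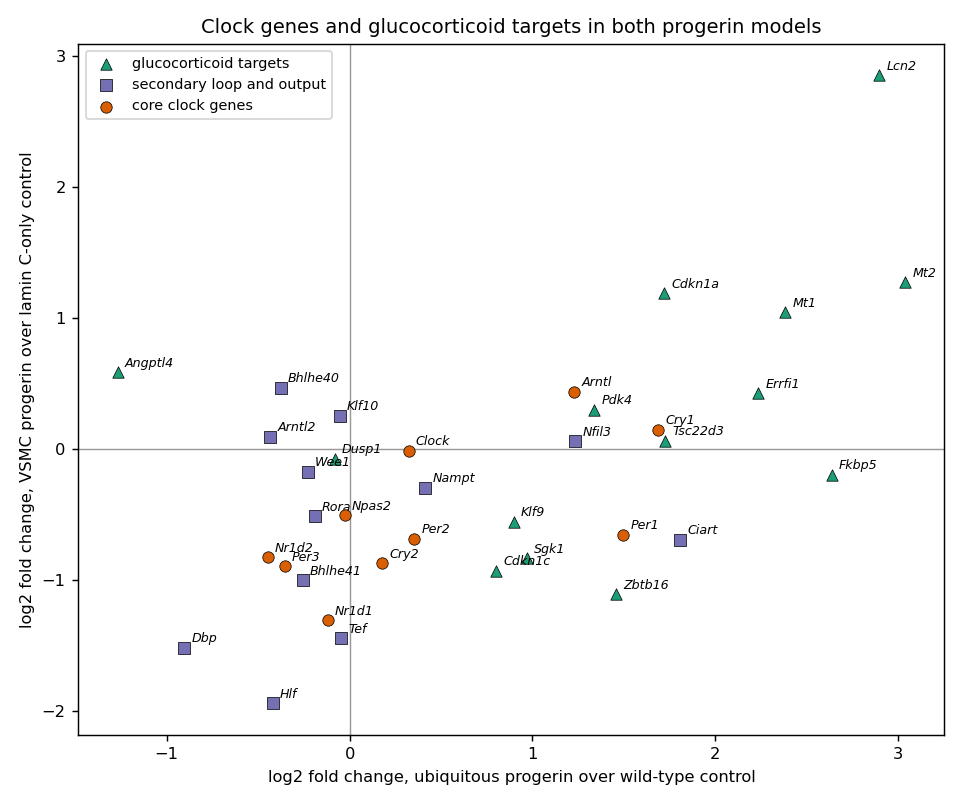
log2 fold change in VSMC progerin over lamin C-only control (vertical) against that in ubiquitous progerin over wild-type control (horizontal), for the 10 core clock genes (circles), 12 of the 13 secondary loop and output genes tested (squares) and 14 glucocorticoid targets (triangles). The comparisons share no libraries. Per1, Sgk1 and Zbtb16 lie at the lower right, higher in ubiquitous progerin and lower in VSMC progerin, and Nr1d1 and Tef lie near 0 on the horizontal axis and well below 0 on the vertical axis. The glucocorticoid targets did not lie together: Lcn2 and Mt1 lie at the upper right, and in VSMC progerin 6 of the 14 were called higher and 4 lower.

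Marker transcripts of several cell types differed between the progerin groups and their controls. The summed level of 10 macrophage markers was 816 to 1115 CPM in ubiquitous progerin, 519.9 to 611 CPM in VSMC progerin, 50.9 to 111 CPM for lamin C-only control and 51.9 to 75.3 CPM in wild-type control, with 10 of 10 called higher in both progerin groups and 0 called between the controls. Smooth muscle markers summed to 956 to 1001 CPM in ubiquitous progerin, 341 to 407 CPM in VSMC progerin, 435 to 599 CPM for lamin C-only control and 525.8 to 875 CPM in wild-type control. The sum in ubiquitous progerin was carried by Tagln (774 CPM, against 258 CPM in wild-type control), the 1 of 10 markers called higher there, while 4 were called lower, among them Myh11 (log2 fold change -1.32) and Acta2 (-1.20). In VSMC progerin 4 of the 10 fell and 0 rose by edgeR. Fibroblast markers summed to 693 to 767 CPM in ubiquitous progerin, 2797 to 3516 CPM in VSMC progerin, 983 to 1276 CPM for lamin C-only control and 968 to 1010 CPM in wild-type control. The lower sum in ubiquitous progerin was carried mainly by Pi16 (59.0 CPM, against 207 CPM in wild-type control) and Ly6a (183 against 336 CPM). There 1 of the 10 was called higher, 3 lower and 6 not called (median log2 fold change 0.30). In VSMC progerin 7 of the 10 were called higher and 0 lower by edgeR. Adipocyte markers summed to 311 to 592 CPM in ubiquitous progerin, 1115 to 1415 CPM in VSMC progerin, 166 to 766 CPM for lamin C-only control and 170 to 241 CPM in wild-type control. Of 8 adipocyte markers, 2 were called higher in ubiquitous progerin and 7 in VSMC progerin, with 0 lower in either by edgeR. For comparison, 26.3% of all genes tested were called higher and 28.3% lower in ubiquitous progerin, and 19.0% and 23.0% in VSMC progerin. None of the markers was at 0 in any group. Fewer cells of a type and less RNA per cell cannot be told apart in these pools, and the part of cell makeup in the clock gene values was not tested. Of the marker genes of these cell types and of endothelial cells, lymphocytes and brown adipocytes, 0 were called between the controls by edgeR, a comparison in which 25 genes were called in all. Mitochondrially encoded genes took 7.29% to 8.22% of the counts in ubiquitous progerin, 11.5% to 12.1% in VSMC progerin, 3.53% to 4.61% for lamin C-only control and 4.603% to 5.42% in wild-type control. Wild-type control pool 1 had counts for 14328 genes, against 14763 to 15452 in the other 13 libraries, and without it no call among the 10 genes changed in ubiquitous progerin against wild-type control.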

How the data were processed

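Polyadenylated RNA of pooled aortic intima lysates was sequenced from strand-specific libraries, per the labels' protocols. The authors deposited RSEM estimated counts per gene, and log2 values normalised with limma voom that served only as an alternative. RSEM 1.2.28, STAR 2.7.10b, Trim Galore 0.6.10, cutadapt 4.1, limma and the GRCm38 build are named in the submitters' processing notes, with their settings and annotation release not given in the sources used. Gene positions are those of GENCODE M21 on GRCm38, which matched 22311 of 22430 identifiers.

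Estimated counts were rounded, kept where filterByExpr allowed (count 10, total 15 and share 0.7 as minimums), and scaled by TMM. A single robust quasi-likelihood model of the 14 libraries was fitted in R 4.3.3 (edgeR 4.0.16). Intervals are at 95%, and a prior count of 2 entered log2 CPM. The steps were tested on simulated counts. P-values weigh group differences against the spread between pools of 12 to 14 mice, and the spread between single mice was not measured. The named genes were the 10 members, up to 3 called genes with the smallest p of each accessory list and comparison, and the 3 genes nearest to Arntl, Per2 and Nr1d1. Of the genes so named, 2 are not reported here. Genes shown only as examples in a figure caption were chosen after their values were seen. Members and lists were chosen with earlier results of these data known. Alternatives used RLE size factors, DESeq2 1.42.0, limma-voom 3.58.1, the deposited log2 values, no filter, the compared groups alone, a block for pool number and each library left out.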

Additional observations from a re-analysis of the deposited data

Results flagged for a closer look

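Per2 in wild-type control pool 4, at 112.9 CPM, lay far from the other 3 wild-type pools (74.2 to 80.2 CPM), with a gap to the nearest pool of 0.844 of the group's range. It was the only such pool among 20 sets of 4 control pools examined, and chance gives about 1 in 20.

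For 7 of the 10 genes the progerin effect itself differed between the models by edgeR's test of the difference. The share of all genes tested was 44.2%, 22.4% higher and 21.8% lower. Each difference is the log2 effect in ubiquitous progerin minus that in VSMC progerin. The differences were 2.15 for Per1, 1.54 for Cry1, 1.19 for Nr1d1, 1.05 for Cry2, 1.04 for Per2, 0.79 for Arntl and 0.38 for Nr1d2. The call of Nr1d2 held in 7 of 20 alternative settings only. Each effect is relative to its own control, and Arntl also differed between the controls (10.7 CPM in wild-type control, 21.7 CPM in lamin C-only control).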

How the results depend on the processing

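Among the calls reported, those of Arntl, Per1, Cry1 and Nr1d2 in ubiquitous progerin, of Per1, Per3, Cry2, Nr1d1 and Nr1d2 in VSMC progerin, of Arntl between the controls and of Per1, Per2, Cry1, Cry2, Nr1d1 and Arntl for the difference of effects held in all 14, 14, 15 and 20 alternatives run. In ubiquitous progerin the number of genes called lower was 2 with limma-voom, with DESeq2 and with the compared groups alone (Per3 in addition to Nr1d2), and 1 to 2 on leaving out single libraries. In VSMC progerin the number called higher was 0 to 1 on leaving out single libraries. Between the controls the number of all genes called was 40 with no filter, 103 with DESeq2, 16 with the compared groups alone and 8 to 45 on leaving out single libraries. The number of clock genes called higher there was 1 on leaving out any library, and the number called lower was 2 with DESeq2 or with the compared groups alone and 0 to 1 on leaving out single libraries.

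No sign changed for a called gene. Npas2 in ubiquitous progerin, which was not called, ran from -0.27 to 0.10 on leaving out single libraries. Clock in VSMC progerin, also not called, was 0.018 with RLE size factors, 0.014 with the deposited log2 values, 0.019 with DESeq2, 0.019 with the compared groups alone and -0.074 to 0.045 on leaving out single libraries. Cry1 between the controls, not called, ran from -0.29 to 0.044. The cause of these changes was not tested.

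Pool numbers did not pair the samples: deviations of same-numbered pools correlated at -0.0461 to 0.0227, and 0 of 3, 1 of 3 and 1 of 4 pools correlated best with their own number in the comparisons of ubiquitous progerin, VSMC progerin and the controls. With the replicate block 7536, 5806 and 32 genes were called in those comparisons, and among the clock genes 4 were higher and 2 lower in ubiquitous progerin, 1 higher and 6 lower in VSMC progerin (Npas2 at -0.49, adjusted p = 0.0576, was no longer called), and 1 higher between the controls.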
